A study of Mus musculus with 24 samples.

Results

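The genes described here are 10 genes that mark fibroblasts of the adventitia, the outer layer of the artery wall: Pdgfra, Dcn, Lum, Pi16, Dpt, Cd34, Ly6a, Clec3b, Scara5 and Dpep1. They were taken by gene symbol from a table of 37606 mouse genes, and all 10 were found, were counted in every one of 24 libraries and passed the filter on low counts in every comparison. The libraries are bulk RNA-seq of aortic homogenates from wild-type (WT) mice that had received angiotensin II (Ang II), a peptide that raises blood pressure, or vehicle (sham) through a subcutaneous osmotic minipump. The infusion lasted 2 weeks, and the tissue was collected 2, 4 or 6 months later, which gave 6 groups of 4 libraries: Ang II at 2, 4 and 6 months and sham at 2, 4 and 6 months. The labels used here state no age, sex or strain. The study asked what an episode of hypertension leaves behind in the aorta. No label says whether replicates came from separate mice, so every p-value reflects library-to-library spread, which may be technical.

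Adventitial fibroblasts make and maintain the collagen-rich sheath around the artery. They include progenitor-like cells that carry the surface markers Cd34 and Ly6a (Sca-1) together with Pi16, and they answer platelet-derived growth factor through the receptor encoded by Pdgfra. Hypertension is known to make the adventitia thicken and stiffen. Cd34 and Ly6a are also made by endothelial cells, and several of the other genes by fibroblasts of any organ. In a bulk homogenate, fewer cells of a type and less RNA per cell cannot be told apart.

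The promoters of 4 genes are shown because these genes were higher at 6 months in both treatments (below), and because, of the 4, only Pi16 and Dpt hold the E-box CAGCTG, which is in capitals. They span the annotated start of the gene, on the plus strand of GRCm38.p6, and come from RefSeq, whose table held 5 of the 10 genes (these 4 and Dpep1).
Pi16, chr17:29318632-29318931: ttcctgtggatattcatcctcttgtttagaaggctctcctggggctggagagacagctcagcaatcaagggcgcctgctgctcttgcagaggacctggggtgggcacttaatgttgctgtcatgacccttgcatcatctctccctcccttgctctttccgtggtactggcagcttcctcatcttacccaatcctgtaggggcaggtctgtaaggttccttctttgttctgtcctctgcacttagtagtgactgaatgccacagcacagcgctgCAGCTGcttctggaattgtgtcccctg
Dpt, chr1:164796413-164796712: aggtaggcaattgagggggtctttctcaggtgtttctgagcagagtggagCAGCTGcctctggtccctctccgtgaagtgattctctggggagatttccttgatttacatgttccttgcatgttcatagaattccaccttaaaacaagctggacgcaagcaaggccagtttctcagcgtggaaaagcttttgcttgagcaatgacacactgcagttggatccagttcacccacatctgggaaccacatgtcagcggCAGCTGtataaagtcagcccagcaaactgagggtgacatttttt
Pdgfra, chr5:75152001-75152300: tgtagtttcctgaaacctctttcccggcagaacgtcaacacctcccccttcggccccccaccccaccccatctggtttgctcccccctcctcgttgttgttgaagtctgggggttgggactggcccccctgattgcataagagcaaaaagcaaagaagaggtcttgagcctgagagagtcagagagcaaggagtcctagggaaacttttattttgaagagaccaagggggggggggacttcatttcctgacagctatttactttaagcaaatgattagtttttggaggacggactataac
Cd34, chr1:194938571-194938870: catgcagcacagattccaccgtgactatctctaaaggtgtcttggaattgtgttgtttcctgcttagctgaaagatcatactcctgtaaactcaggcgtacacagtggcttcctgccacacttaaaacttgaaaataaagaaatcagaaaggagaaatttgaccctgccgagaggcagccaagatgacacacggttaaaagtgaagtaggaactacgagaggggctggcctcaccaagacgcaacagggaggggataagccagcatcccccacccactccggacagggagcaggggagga
With offset 0 at the start, CAGCTG began at offset 23 in Pi16 and at offsets -200 and 6 in Dpt, and the Dpep1 promoter held it at offset 20. It reads the same on both strands, and 16.3% of 32851 promoters of the same length hold it. Dpt also holds TATAAA, searched on both strands and overlapping none of the CAGCTG matches, as do 13.6% of promoters. None of the 5 held TGANTCA (7.81% of promoters) or GGGCGG (35.7%). A match describes the letters in this window only.

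The 24 libraries held 19163673 to 58676098 counts. Mitochondrial transcripts took 7.72 to 16.3% of counts at 2 and 4 months and 31.7 to 59.3% at 6 months. In Ang II replicate 4 at 6 months they took 52.9%, and mitochondrial and ribosomal RNA genes together 66.5%. In the other Ang II libraries of that time the joint shares were 33.0, 44.7 and 47.6%, and mitochondrial transcripts alone 32.8, 44.7 and 47.6%. Replicate 4 also differed most in counts, with a chi-square per degree of freedom of 987 to 1092 against the others. Among these others it was 124 to 471. Fits without this library are among those that left out a library. Rn7sk, a small nuclear RNA that is not polyadenylated, had 1.44 to 13.2 CPM (counts scaled to a fixed library total) at 2 and 4 months and 2748 to 9777 CPM at 6 months. The 6-month libraries are thus of another make-up in both treatments, and time and kind of library cannot be told apart in any comparison of 6 months with an earlier time. Summed over 10 smooth muscle markers (Acta2, Myh11 and others), libraries held 547 to 6353 CPM. Summed over 9 adipocyte markers (Adipoq, Plin1 and others) they held 5740 to 25480 CPM, more than the smooth muscle markers in every group. The 10 fibroblast genes together made up 844 to 2033 CPM.

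Per base of transcript, Dcn and Clec3b led in the mean over groups and the growth factor receptor came last. Levels were expressed as CPM per kilobase of exon (FPKM), averaged over the 6 group means. Dcn, the collagen-binding proteoglycan decorin, had 99.7 FPKM, and Clec3b, the plasminogen-binding protein tetranectin, had 91.9 FPKM. Ly6a had 71.5 FPKM and Dpt, the matrix protein dermatopontin, had 66.3 FPKM. A lower tier held Dpep1, a membrane dipeptidase, with 22.1 FPKM, Pi16, a secreted peptidase inhibitor family protein, with 17.8 FPKM, Cd34 with 14.1 FPKM, Lum, the proteoglycan lumican, with 13.8 FPKM and Scara5, a scavenger receptor for ferritin, with 11.04 FPKM. Pdgfra had 4.14 FPKM. Within a group, the lowest library of the upper tier lay above the highest library of the next gene in 5 of 6 groups, the exception being sham at 2 months. Pdgfra lay below its neighbour in every library of all 6 groups. Neighbours inside each tier mostly overlapped: in sham mice at 6 months, for example, Pi16 averaged 31.9 ± 5.03 FPKM and Dpep1 24.7 ± 2.26 FPKM (SD, n = 4 libraries each), with overlapping libraries.

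The genes lie on 8 chromosomes in the mm10 coordinates of the deposited tables, and Dcn (chr10:97479609-97518143) and Lum (chr10:97565128-97572703) are close together on the plus strand. Pi16 lies at chr17:29318877-29329413, Clec3b at chr9:123150946-123157432, Pdgfra at chr5:75152292-75198215 and Ly6a, on the minus strand, at chr15:74994877-74998031. Most of their transcript sequence is their own. No stretch of 50 bases in Dcn, Lum, Dpt, Clec3b or Scara5 recurs in another annotated gene, and 0.411% of such stretches in Dpep1, 2.14% in Cd34, 3.88% in Pi16 and 4.93% in Pdgfra do, the matches of Cd34, Pi16 and Pdgfra mainly in antisense genes that overlap them. Ly6a is less certain, since 19.0% of its stretches are shared with its paralogs Ly6c1, Ly6i and Ly6c2 and with I830127L07Rik.

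**Figure D1:**
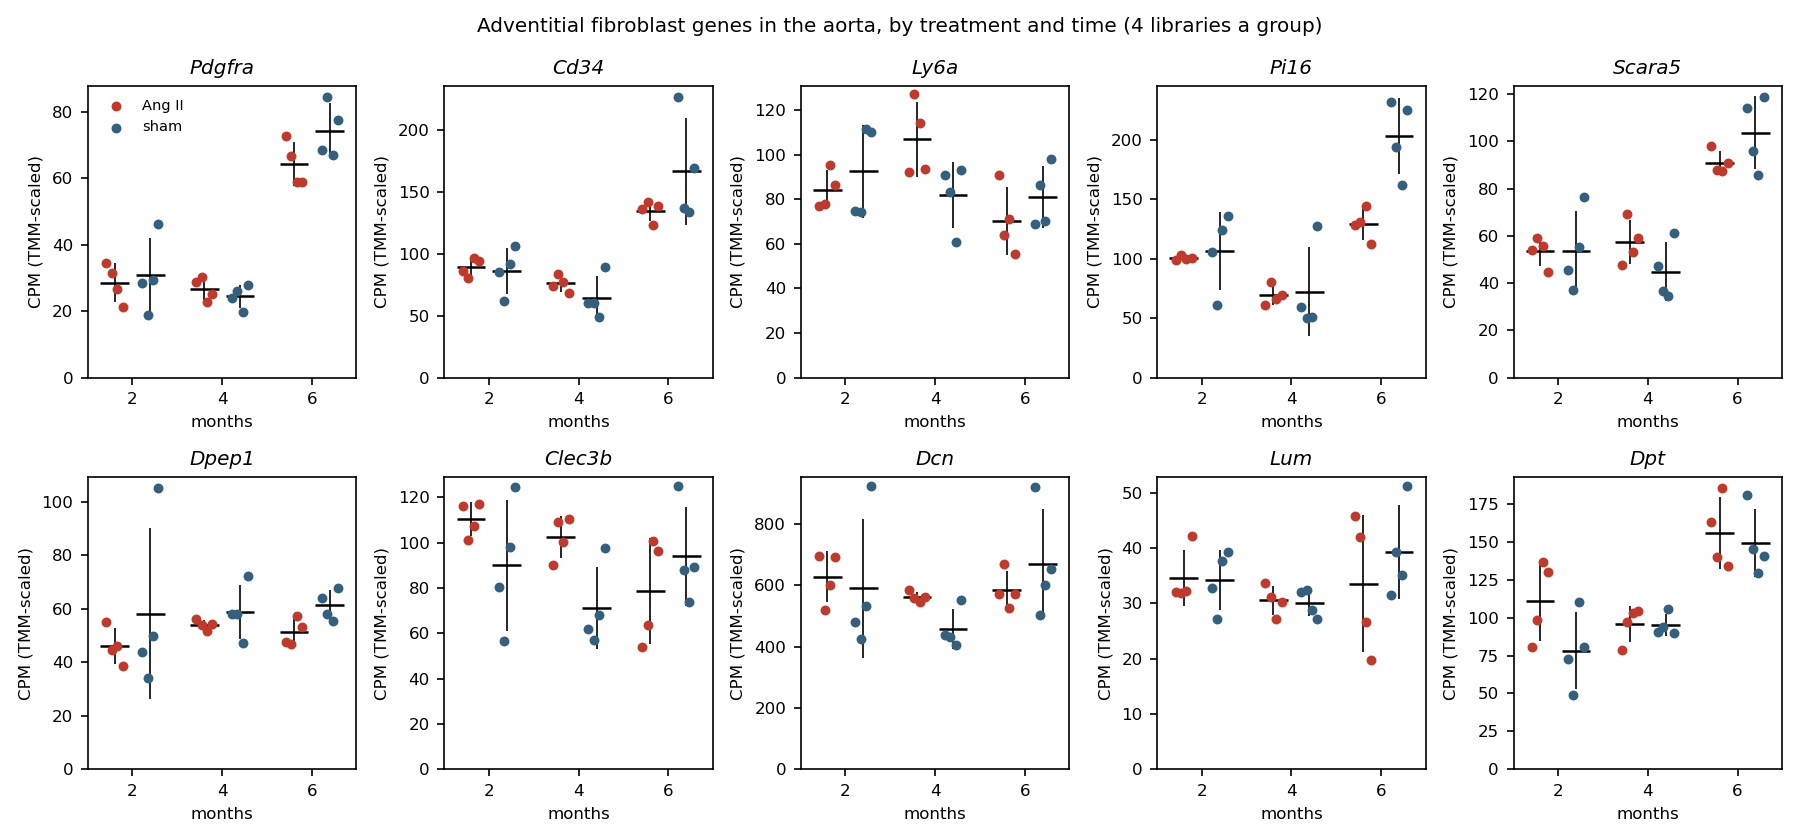
TMM-scaled CPM of the 10 genes (y axis, from 0) against months after the infusion (x axis). Each point is a library, horizontal bars are group means and vertical lines 1 SD, with Ang II left of sham at each time. Pdgfra, Cd34, Scara5 and Dpt are higher at 6 months in both treatments, and at 6 months the 4 Ang II libraries of Pi16 all lie below the 4 sham libraries.

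At 2 months no gene of the 10 differed between Ang II and sham aortas by the quasi-likelihood test of edgeR, adjusted by Benjamini-Hochberg over 16421 genes, of which 1.81% were called. None reached an unadjusted p under 0.05 either (10.8% of all genes did), and DESeq2 and limma called none. Dpt had the largest difference. It had 80.4, 98.3, 137 and 130 CPM in Ang II libraries and 72.5, 48.8, 110 and 80.6 CPM in sham libraries. Of the Ang II values, 2 exceed every sham value, but the groups overlap, and the log2 fold change was 0.53 (SE 0.25, 95% interval -0.04 to 1.10, edgeR adjusted p = 0.510).

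The other 9 lay closer to 0 at 2 months. Clec3b, at 116, 101, 108 and 117 CPM in Ang II libraries and 80.4, 56.5, 98.2 and 125 CPM in sham libraries, had a log2 fold change of 0.32 (edgeR adjusted p = 0.703). The sham libraries span the Ang II ones on both sides. Dpep1 had 38.7 to 54.9 CPM in Ang II libraries and 34.0 to 105 CPM in sham libraries, with a log2 fold change of -0.31 (edgeR adjusted p = 0.859). Of the 10 log2 fold changes, 6 were above 0, against 51.7% of all genes, with a median of 0.03 against 0.01 over all genes. The 95% intervals of the 10 genes together run from 0.486-fold to 2.15-fold, so changes of that size are not excluded at this depth and spread. Smooth muscle markers at this time had a summed level of 835 to 1664 CPM over all 10 in Ang II libraries and 3374 to 6353 CPM in sham libraries, none of them at 0 in every library, and their part in these values was not tested.

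At 4 months most of the fibroblast genes had higher means in Ang II aortas, and none passed the test. Of the 10, 8 had a log2 fold change above 0, against 57.0% of all genes, and the median was 0.20 against 0.04. Most of the genes vary together from library to library (below), so in no comparison do these signs count as 10 separate observations. None of the 10 was called by edgeR, with 0.707% of 16127 genes called. Clec3b, Dcn and Ly6a (3 of 10) had an unadjusted p under 0.05, against 15.5% of all genes.

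Clec3b had 90.2, 109, 100.2 and 110.3 CPM in Ang II libraries at 4 months and 61.9, 56.9, 68.2 and 97.5 CPM in sham libraries. Of the Ang II libraries, 3 lie above every sham library, and sham replicate 4 lies inside the Ang II range. The log2 fold change was 0.55 (SE 0.17, 95% interval 0.16 to 0.93, edgeR adjusted p = 0.170). Dcn had 584, 559, 546 and 562 CPM in Ang II libraries and 437, 430, 406 and 552 CPM in sham libraries. Again only sham replicate 4 reached the Ang II range, and the log2 fold change was 0.32 (SE 0.11, 95% interval 0.08 to 0.57, edgeR adjusted p = 0.1998).

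Ly6a had 92.4, 127, 114 and 93.7 CPM in Ang II libraries at 4 months and 90.8, 83.2, 60.6 and 93.0 CPM in sham libraries, with a log2 fold change of 0.40 (edgeR adjusted p = 0.272). Its paralog Ly6c1, with which it shares sequence, averaged 120.2 ± 14.4 CPM in Ang II libraries and 112 ± 11.1 CPM in sham libraries (SD, n = 4 each), a log2 fold change of 0.12 (edgeR adjusted p = 0.632).

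The calls for Clec3b and Dcn turned on 1 library and on the tool. Without sham replicate 4 at 4 months, edgeR called both, with log2 fold changes of 0.73 for Clec3b (adjusted p = 0.0131) and 0.42 for Dcn (adjusted p = 0.0155), and called 4.09% of all genes. limma with quality weights called both as well (adjusted p = 0.0292 for Clec3b and 0.0419 for Dcn, 3.73% of all genes called). DESeq2 called Clec3b (adjusted p = 0.0496, 6.16% of all genes called) and not Dcn. In the authors' deposited table the adjusted p was 0.0559 for Clec3b and 0.0819 for Dcn. Sham replicate 4 had the highest CPM of its group for 8 of the 10 genes. It also held 2539 CPM of smooth muscle markers against 714 to 1268 CPM in the other sham libraries, and 1880 CPM over 7 brown adipocyte markers against 4436 to 5226 CPM. Macrophage markers, 11 of 11 counted and none at 0 throughout, summed to 728 to 1184 CPM in Ang II libraries at 4 months and 376 to 626 CPM in sham libraries. The part of these cell types in the values was not tested.

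At 6 months 9 of 10 genes had lower means in Ang II aortas and Pi16 stood furthest from 0. Pi16 had 128, 131, 144 and 112 CPM in Ang II libraries and 231.5, 193.5, 162 and 225 CPM in sham libraries. All 4 Ang II libraries lie below all 4 sham libraries, a separation that 1.55% of all genes showed in that direction. The log2 fold change was -0.65 (SE 0.14, 95% interval -0.96 to -0.35), or 0.636-fold, with an edgeR adjusted p of 0.922 in a comparison where edgeR called 0 of 19343 genes (0.0%). Its unadjusted p from edgeR was 0.000977, and the lowest adjusted p that edgeR gave when a library was left out was 0.465, with log2 fold changes from -0.74 to -0.58. DESeq2 on the same counts gave Pi16 an adjusted p of 0.0141 and called 0.326% of all genes, and the authors' deposited table lists a log2 fold change of -0.65 with an adjusted p of 0.0246. limma with quality weights gave an adjusted p of 0.737.

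Dpep1 was the other gene with an unadjusted p under 0.05 at 6 months, as 5.05% of all genes had. It had 47.6, 46.8, 57.2 and 53.1 CPM in Ang II libraries and 63.9, 58.0, 55.5 and 67.9 CPM in sham libraries, with a log2 fold change of -0.26 (SE 0.11, edgeR adjusted p = 0.942). Of the Ang II values, 3 lie below every sham value. Only Dpt had a log2 fold change above 0 (0.07), where 45.2% of all genes did, and the median of the 10 was -0.22 against -0.03 over all genes. The 95% intervals of the 10 genes run from 0.514-fold to 1.31-fold. Smooth muscle markers summed to 1358 to 2324 CPM in Ang II libraries at 6 months and 908 to 1290 CPM in sham libraries, and macrophage markers to 732 to 1130 CPM in Ang II libraries and 815 to 1319 CPM in sham libraries. Skeletal muscle markers summed to 599.5 to 8577 CPM in Ang II libraries and 46.4 to 618 CPM in sham libraries. Sham replicate 1, highest for Pi16, held 112 CPM of airway epithelium markers against 2877 to 6838 CPM in the other sham libraries. It held 1757 CPM of mesothelial markers against 686 to 861 CPM in the others. The part of these cell types in the Pi16 and Dpep1 values was not tested.

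**Figure D2:**
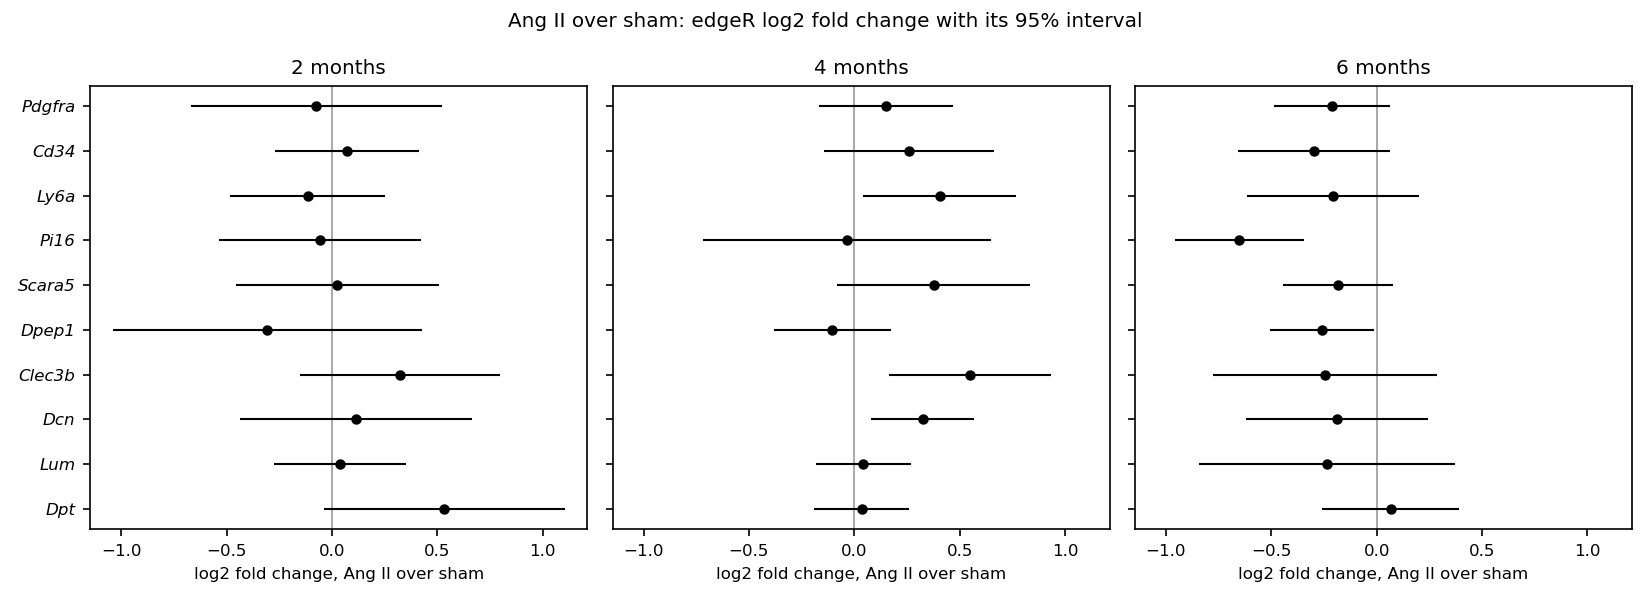
edgeR log2 fold change of Ang II over sham (x axis) for each of the 10 genes (y axis) at 2, 4 and 6 months, with 95% intervals as bars. At 6 months the interval of Pi16 runs from -0.96 to -0.35, and at 4 months that of Clec3b runs from 0.16 to 0.93. Intervals are per gene and not adjusted for the number of genes tested.

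Over the 3 times together, none of the 10 was called for an average Ang II effect by edgeR over 24 libraries with month as a block, where 0.0052% of 19218 genes were called. None had an unadjusted p under 0.05 by edgeR (6.90% of all genes did), and 1 had by limma. The log2 averages ran from -0.26 for Pi16 to 0.20 for Dpt, and the 95% intervals of the 10 genes from 0.673-fold to 1.40-fold. None was called for an effect that differed between times (0.536% of all genes called by the interaction test), and DESeq2 and limma called none in either test.

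The change of the Ang II effect between 4 and 6 months was below 0 for 9 of 10 genes, against 55.2% of all genes. It had an unadjusted p under 0.05 for 3 of them, against 11.7% of all genes. On the log2 scale it was -0.78 for Clec3b (SE 0.32, edgeR adjusted p = 0.358), -0.59 for Ly6a (SE 0.25, adjusted p = 0.384) and -0.54 for Cd34 (SE 0.25, adjusted p = 0.416). For Pi16 it was -0.60 (SE 0.35, adjusted p = 0.511), so the separation of Pi16 at 6 months is not shown to differ from the values at 4 months. The change between 4 and 6 months uses the same libraries as the comparisons at those times. Its signs are therefore no separate observation, and the 10 genes vary together.

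Against 4 months, 5 of the 10 genes were called higher at 6 months in both treatments: Pdgfra, Pi16, Dpt, Cd34 and Scara5. In Ang II mice edgeR called 5 of 10 genes higher (26.9% of all genes) and 1 lower (29.6%), so 6 in all where 56.5% of all genes were called. In sham mice it called 6 of 10 higher (32.1% of all genes) and none lower, where 62.8% of all genes were called. In all 5 genes the 6-month libraries lay above every 4-month library in Ang II mice (24.3% of all genes) and in sham mice (28.3%). With so many genes moving between kinds of library, these counts are to be read against those shares.

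Pdgfra, the receptor, moved most. It had 59.0, 59.0, 66.8 and 72.6 CPM in Ang II libraries at 6 months and 22.8, 25.1, 28.7 and 30.1 CPM at 4 months, a log2 fold change of 1.27 (SE 0.15, edgeR adjusted p = 3.38e-05). In sham libraries it had 67.0, 68.4, 77.4 and 84.5 CPM at 6 months and 19.9, 24.1, 26.0 and 28.0 CPM at 4 months, a log2 fold change of 1.63 (SE 0.22, edgeR adjusted p = 6.07e-05). No library of one time comes near the other time in either treatment.

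Cd34, a surface sialomucin of progenitor and endothelial cells, rose by 0.83 on the log2 scale in Ang II mice (123 to 142 CPM at 6 months and 68.4 to 84.0 CPM at 4 months, edgeR adjusted p = 2.58e-05). In sham mice it rose by 1.40 (134 to 226 CPM at 6 months and 48.5 to 89.4 CPM at 4 months, adjusted p = 0.000251). Pi16 rose by 0.89 in Ang II mice (112 to 144 CPM at 6 months and 61.3 to 80.4 CPM at 4 months) and by 1.52 in sham mice (162 to 231.5 CPM at 6 months and 49.9 to 128 CPM at 4 months), with edgeR adjusted p of 3.11e-05 and 0.00148. Scara5 rose by 0.67 in Ang II mice and by 1.23 in sham mice, and Dpt by 0.70 in Ang II mice and by 0.68 in sham mice, each called by edgeR (highest adjusted p = 0.0114).

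Ly6a did not follow Pdgfra, Cd34, Pi16, Scara5 and Dpt. It had 90.9, 63.8, 71.1 and 55.4 CPM in Ang II libraries at 6 months and 92.4, 127, 114 and 93.7 CPM at 4 months. It fell by 0.60 on the log2 scale (SE 0.16, edgeR adjusted p = 0.00589). Its 6-month libraries all lay below its 4-month libraries, as in 27.7% of all genes. In sham libraries it was 69.0 to 98.1 CPM at 6 months and 60.6 to 93.0 CPM at 4 months, with a log2 fold change of 0.01 (SE 0.19). The difference between those changes is the -0.59 given above, which did not pass. Ly6c1, its paralog, was lower at 6 than at 4 months in both treatments, by a log2 fold change of -1.39 in Ang II mice and -1.52 in sham mice (edgeR adjusted p = 2.75e-05 and 7.07e-07).

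The calls for the proteoglycans and for Clec3b between 6 and 4 months depended on the tool and the settings. Dcn had log2 fold changes of 0.05 (SE 0.13) in Ang II mice and 0.58 (SE 0.25, edgeR adjusted p = 0.0613) in sham mice, and Clec3b -0.38 (SE 0.18) and 0.43 (SE 0.25) in Ang II and sham mice. Dcn in sham mice was called higher by DESeq2 (adjusted p = 0.0192, 65.0% of all genes called), by limma (0.0198, 64.8%) and by edgeR with DESeq2 size factors (0.0412, 62.8%) or the replicate block (0.0406, 60.3%). edgeR also called Dcn without sham replicate 4 at 2 months (log2 0.56, adjusted p = 0.018, 64.5% of all genes called) or sham replicate 2 at 6 months (log2 0.69, 0.0399, 58.4%). Clec3b in Ang II mice was called lower by limma (log2 -0.67, adjusted p = 0.00166, 60.5% of all genes called) and by edgeR with no filter on low counts (log2 -0.52, 0.034, 38.6%). It was also called without Ang II replicate 3 (log2 -0.53, 0.0288, 52.8%) or 4 (log2 -0.51, 0.0397, 55.0%) at 6 months. Lum was called higher by edgeR in sham mice at 0.41 (SE 0.15, edgeR adjusted p = 0.03575) against 0.14 (SE 0.22) in Ang II mice, a difference of -0.24 (SE 0.28) that did not pass. The call for Lum was lost on leaving out sham replicate 1 at 2 months, any of the 4 sham libraries at 4 months, or sham replicate 2 or 4 at 6 months (log2 0.26 to 0.42, edgeR adjusted p 0.0525 to 0.124). It was also lost with the replicate block (log2 0.39, adjusted p = 0.0611), with no filter on low counts (0.35, 0.0843), with a mean count of at least 5 (0.35, 0.0643) and without mitochondrial and ribosomal RNA genes (0.37, 0.0521). Dpep1 had -0.08 (SE 0.11) in Ang II mice and 0.09 (SE 0.29) in sham mice.

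Against 2 months, the same 5 genes were called higher at 6 months in both treatments, from comparisons that share their 6-month libraries with those above. In Ang II mice that was 5 of 10 against 26.6% of all genes, and 1 gene was called lower against 28.6%, where 55.2% were called in all. In sham mice it was 5 of 10 against 28.0%, where 58.5% were called in all, of which 47.9% were higher (58.0% with no filter on low counts). The log2 fold changes in Ang II mice were 1.17 for Pdgfra, 0.77 for Scara5, 0.60 for Cd34, 0.49 for Dpt and 0.36 for Pi16, and in sham mice 1.30 for Pdgfra, 0.98 for Scara5, 0.98 for Cd34, 0.96 for Dpt and 0.96 for Pi16. The libraries of the 2 times did not overlap for 4 of the 5 in Ang II mice (23.8% of all genes), Dpt being the exception, nor for any of the 5 in sham mice (24.4%).

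Clec3b was the gene called lower at 6 than at 2 months, in Ang II mice, with 54.0, 63.6, 101 and 96.4 CPM at 6 months and 116, 101, 108 and 117 CPM at 2 months (log2 fold change -0.48, SE 0.18, edgeR adjusted p = 0.0409). That call was lost without Ang II replicate 1, 3 or 4 at 2 months or 1 or 2 at 6 months (log2 -0.53 to -0.34, adjusted p 0.0522 to 0.108), and with DESeq2 size factors, in edgeR (log2 -0.42, adjusted p = 0.0746) or DESeq2 (adjusted p = 0.0593). The call for Dpt in Ang II mice (adjusted p = 0.0312) was lost without Ang II replicate 1 or 2 at 2 months, 2 at 4 months, or 1 or 3 at 6 months (Dpt log2 0.35 to 0.47, adjusted p 0.0527 to 0.0935), with limma (log2 0.31, adjusted p = 0.129), with no filter on low counts (0.36, 0.137) and with a mean count of at least 5 (0.42, 0.062). The call for Pi16 in sham mice (adjusted p = 0.02195) was lost without sham replicate 2 at 2 months (Pi16 log2 0.75, adjusted p = 0.0561) or replicate 1 at 6 months (log2 0.88, adjusted p = 0.053). With no filter on low counts Pi16 in Ang II mice had a log2 fold change of 0.23 (adjusted p = 0.209), in a fit that shifted the median of all genes by -0.14. Leaving out a library also brought calls: Dpep1 was called higher in sham mice without sham replicate 4 at 2 months (log2 0.54, adjusted p = 0.0141, 55.6% of all genes called), and Ly6a lower in Ang II mice without Ang II replicate 1 at 6 months (log2 -0.40, adjusted p = 0.0357, 50.4%). Mesothelial markers, 9 of 9 counted, also differed by time, with 701 to 946 CPM in Ang II and 686 to 1757 CPM in sham libraries at 6 months, and 41.4 to 440 CPM at 2 and 4 months. Their part was not tested.

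**Figure D3:**
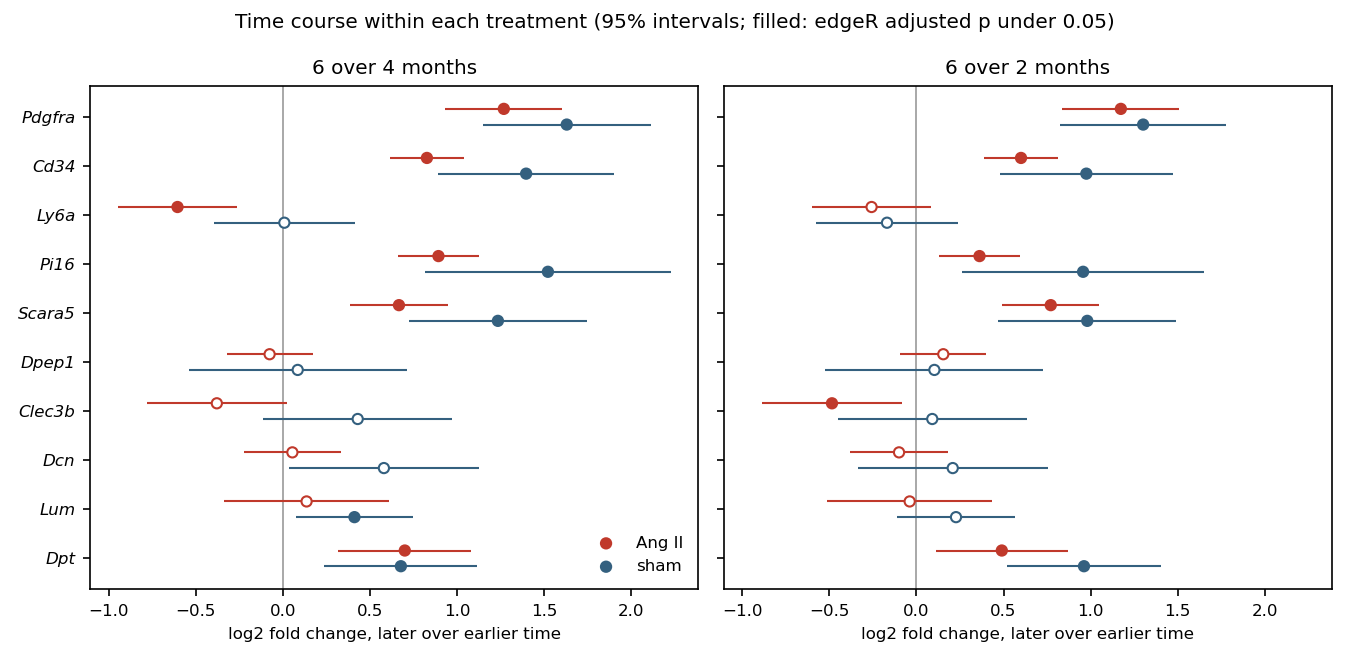
edgeR log2 fold change of 6 over 4 months (left) and 6 over 2 months (right) on the x axis for each gene on the y axis, Ang II above sham, with 95% intervals. Filled points passed an adjusted p under 0.05. Pdgfra, Cd34, Pi16, Scara5 and Dpt lie right of 0 in all 4 comparisons, and Ly6a lies at -0.60 in Ang II mice for 6 over 4 months.

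The libraries of 2 and 4 months overlap in mitochondrial share and Rn7sk level. In sham libraries smooth muscle markers summed to 714 to 2539 CPM at 4 months and 3374 to 6353 CPM at 2 months. In Ang II libraries they summed to 547 to 904 CPM at 4 months and 835 to 1664 CPM at 2 months. Their part was not tested. Between these times none of the 10 was called in Ang II mice (0.0167% of all genes) or in sham mice (0.646%). By edgeR, 3 genes in Ang II mice and none in sham mice had an unadjusted p under 0.05, against 9.35% of all genes in Ang II mice and 15.6% in sham mice. Log2 fold changes were above 0 for 3 of 10 genes in Ang II mice, against 52.5% of all genes, and for 2 of 10 in sham mice, against 49.5%. Pi16 had the log2 fold change of largest size in both treatments. It had 61.3, 80.4, 66.1 and 69.8 CPM at 4 months in Ang II mice and 98.8, 103, 99.95 and 100.2 CPM at 2 months, with no overlap, as in 3.43% of all genes in that direction. The log2 fold change was -0.53 (SE 0.11, 95% interval -0.76 to -0.30, unadjusted p = 0.000325 and adjusted p = 0.159 by edgeR).

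Other tools called that difference. DESeq2 gave Pi16 an adjusted p of 0.000213 for 4 against 2 months in Ang II mice (1.28% of all genes called) and limma with quality weights 0.0254 (2.60%). In sham mice Pi16 had 59.3, 49.9, 51.1 and 128 CPM at 4 months and 106, 61.3, 124 and 136 CPM at 2 months, a log2 fold change of -0.57 (SE 0.32, edgeR adjusted p = 0.422). Of the 4-month values, 3 lie below every 2-month value, and without sham replicate 4 at 4 months the log2 fold change was -0.99 with an edgeR adjusted p of 0.0497 (3.38% of all genes called).

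Most pairs of the 10 genes varied together from library to library within a group. After each group's mean log2 CPM was subtracted, 44 of 45 pairs had a Pearson r above 0 over 24 libraries, with a median r of 0.48. The highest r was 0.84, for Pi16 with Scara5, and the lowest -0.31, for Lum with Clec3b. Dpep1 had the highest median r with the other 9 (0.63) and Lum the lowest (0.17). Over the 16 libraries of 2 and 4 months the median r was 0.61 and 45 of 45 pairs were above 0. Over the 8 libraries of 6 months, added after the data were seen, the median was 0.32, 32 of 45 pairs were above 0 and the lowest r was -0.77, for Lum with Clec3b. All genes of a library share its depth, scaling and dissection, and these r values are descriptions.

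**Figure D4:**
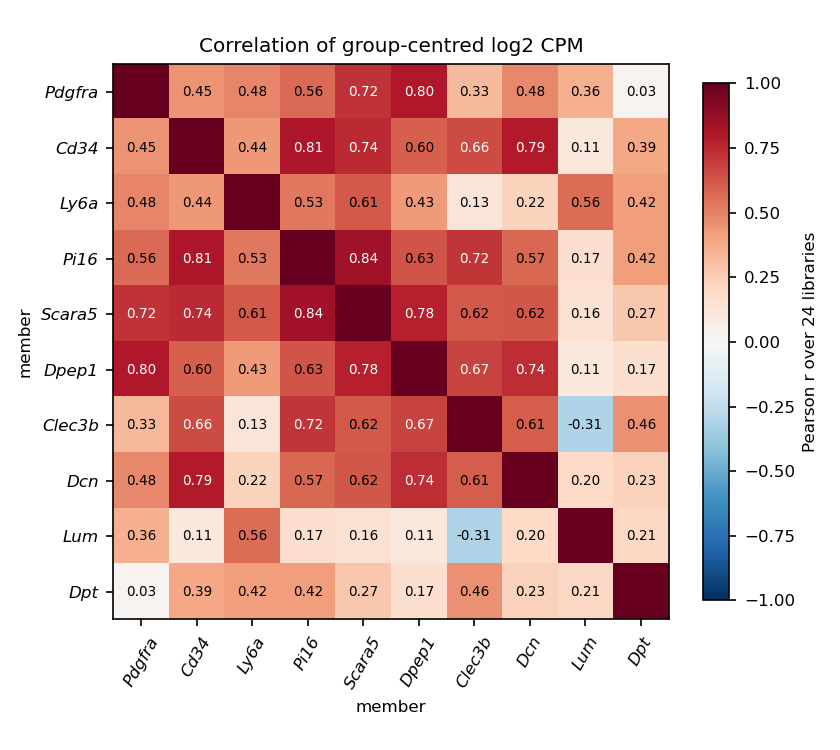
Pearson r of each pair of genes (both axes) over 24 libraries after subtraction of the group means of log2 CPM, with the colour scale from -1 to 1. The pair Pi16 and Scara5 has r = 0.84, and the pair Lum and Clec3b has r = -0.31.

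Single sham libraries stood high or low for most of the genes at once. At 2 months sham replicate 2 was the lowest of its group for 10 of 10 genes, with a median of 0.594 times the mean of the other 3 libraries. Sham replicate 4 was the highest for 8 of 10, with a median of 1.49 times that of the others. All 10 genes had a smaller SD of log2 CPM in Ang II than in sham libraries at 2 months, as 50.7% of all genes did, and the median SD of the 10 was 0.19 in Ang II libraries and 0.48 in sham libraries. Pi16, for example, was at 100.4 ± 1.69 CPM in Ang II libraries and 107 ± 32.6 CPM in sham libraries (SD, n = 4 each). The SD was smaller in Ang II libraries for 8 of 10 genes at 4 months (52.5% of all genes) and 5 of 10 at 6 months (37.9%). Because the 10 genes move together, they do not count as 10 separate observations of spread, and no test of it was made.

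**Figure D5:**
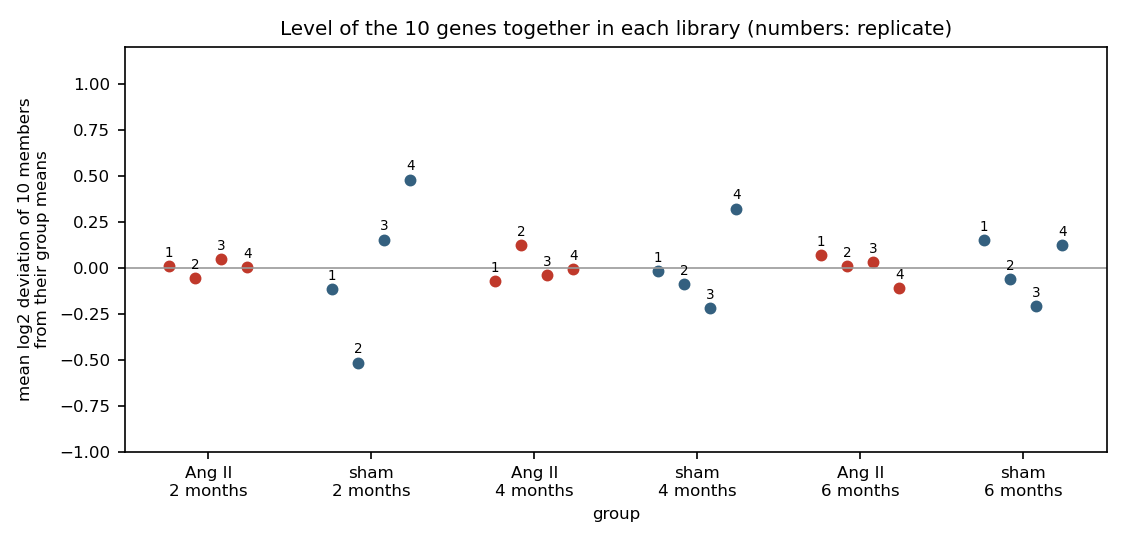
Mean log2 deviation of the 10 genes from their group means (y axis) in each library, by group (x axis), Ang II in red and sham in blue, with the replicate number above each point. Sham replicates 2 and 4 at 2 months lie at -0.52 and 0.48, and the 4 Ang II libraries of that time lie between -0.06 and 0.05.

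Among 13729 other protein-coding genes, those whose library-to-library pattern was most like the mean of the 10 were F13a1 (r = 0.90, Spearman rho = 0.83), Mgl2 (0.87, 0.69), Gfpt2 (0.87, 0.68), Serpinf1 (0.86, 0.66), Tmem214 (0.86, 0.76), Serping1 (0.86, 0.70), Mrc1 (0.85, 0.76), Mcpt4 (0.84, 0.82), Cpa3 (0.84, 0.79) and Ms4a4d (0.84, 0.83). The values are over 24 libraries with group means subtracted. For each of these genes, r was also taken without the 2 libraries farthest from that gene's own median. It then ran from 0.69 for Serpinf1 to 0.86 for F13a1. Over 24 libraries, 95% of the genes compared had an r under 0.55. Of these 10 genes, only Gfpt2 and Serpinf1 stand in the fibroblast lists described below, and only Mrc1 among the macrophage markers. The others stand in no list used here, and which cells make them was not tested. F13a1 was also the closest gene to Pi16 (r = 0.92) and to Scara5 (r = 0.89), Prss23 to Dcn (0.90), Ccl9 to Cd34 (0.90), Anpep to Pdgfra (0.88), Apmap to Lum (0.89), Zbed3 to Clec3b (0.90), Lrrc59 to Dpep1 (0.90), Mcu to Dpt (0.76) and Pxylp1 to Ly6a (0.79). Summed marker levels of other cell types had Pearson r with the mean of the 10 from -0.50 for Schwann cell and neuron markers to 0.51 for mesothelial markers, with 0.43 for smooth muscle, 0.43 for macrophage and 0.17 for endothelial markers.

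Other genes of the adventitial fibroblast programme were mostly not called between Ang II and sham either, and most of those called at 2 months fell. Of all genes at that time, edgeR called 0.371% higher and 1.44% lower, so lower calls also prevailed among all genes. Of 22 further genes of the progenitor-like state, 1 was called lower and none higher at 2 months, Efhd1, with 9.27 ± 2.11 CPM in Ang II and 30.4 ± 12.9 CPM in sham libraries (SD, n = 4 each, log2 fold change -1.68, edgeR adjusted p = 0.0297). The median of that list was 0.05 at 2, 0.25 at 4 and -0.22 at 6 months. None of its genes was called at 4 or 6 months, where edgeR called 0.707% and 0.0% of all genes. Of 34 general fibroblast genes, Nov (Ccn3, a matricellular protein) fell by 2.21 and Mgp, the matrix Gla protein that inhibits calcification, fell by 1.23 on the log2 scale at 2 months (edgeR adjusted p = 0.018 and 0.0248). C4b, a complement component, rose at 4 months, with 385 ± 20.4 CPM in Ang II and 230.5 ± 33.0 CPM in sham libraries (log2 fold change 0.76, edgeR adjusted p = 0.0373). Of the 8 fits that each left out a library, edgeR called C4b only in that without sham replicate 4 (in the other 7, log2 0.71 to 0.86, adjusted p 0.0658 to 0.136), and it did not call C4b with the replicate block (adjusted p = 0.226). None of the 34 was called at 6 months, as was no gene at all.

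Dcn and Lum belong to the small leucine-rich proteoglycans, and 2 of 14 relatives tested fell at 2 months while Dcn and Lum did not pass. Bgn, biglycan, had 202 ± 36.1 CPM in Ang II and 680 ± 193 CPM in sham libraries (log2 fold change -1.73, edgeR adjusted p = 0.00955), and Optc, opticin, fell by 2.28. Of 24 tested genes of activated fibroblasts, 4 were called lower and none higher at 2 months, among them Postn, the matricellular protein periostin (log2 fold change -1.30), Tnc, tenascin C (-1.25), and Loxl3, a collagen cross-linking enzyme (-1.01), with edgeR adjusted p of 0.0118, 0.024 and 0.0443. Of 18 transcription factors, Klf4 rose by 1.24 and Tbx18 fell by 0.88 (edgeR adjusted p = 0.0161 and 0.0292). Of the genes named here for 2 months, Bgn alone kept its call in every fit that left out a library. Bgn was called by edgeR in 8 of 8 such fits, Optc in 7 (lost without sham replicate 1, adjusted p = 0.0529), Postn in 6 (lost without Ang II replicate 2 or 3, up to 0.0533) and Klf4 in 6 (lost without sham replicate 1 or Ang II replicate 3, up to 0.0774). Nov and Mgp were called in 4, lost without sham replicate 1 or Ang II replicate 2, 3 or 4 (up to 0.0711 for Nov and 0.0957 for Mgp). Efhd1 was called in 3, lost without sham replicate 1 or 4 or Ang II replicate 2, 3 or 4 (up to 0.113), and Tnc in 3, lost without sham replicate 1 or any Ang II library (up to 0.0711). Loxl3 was called in 2, without sham replicate 3 or Ang II replicate 1 (otherwise up to 0.165), and Tbx18 in 1, without Ang II replicate 1 (otherwise up to 0.1203). With the replicate block edgeR did not call Tnc (adjusted p = 0.057) or Loxl3 (0.0549). With a mean count of at least 5 it did not call Loxl3 either (adjusted p = 0.0503). These calls stand beside the lower smooth muscle marker sum of Ang II libraries at 2 months given above, and several of the genes are also made by smooth muscle cells, whose part was not tested. At 2 months the median log2 fold change was -0.11 for the general fibroblast genes, -0.48 for the proteoglycans, -0.27 for the activated fibroblast genes, -0.19 for the transcription factors, -0.42 for 5 genes of the platelet-derived growth factor family and 0.32 for 7 genes of the Ly6 family, against 0.01 over all genes. No gene of the proteoglycan, activated, transcription factor, platelet-derived growth factor or Ly6 lists was called at 4 or 6 months. Of all genes, edgeR called 0.707% at 4 months and 0.0% at 6 months, so the absence of calls is not particular to these lists.

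Across time the wider lists held calls in both directions, between kinds of library that differ. Of the 22 progenitor-like genes, 14 were called higher and 2 lower at 6 than at 4 months in Ang II mice (median log2 fold change 0.85), and 17 higher and 2 lower in sham mice (median 1.38), beside the shares of all genes given above. Sema3c, a secreted guidance protein, rose by 2.05 in Ang II mice, and Dpp4, a surface peptidase of progenitor-like fibroblasts, by 2.51 in sham mice. Of the 34 general genes, 15 were higher and 7 lower in Ang II mice and 20 higher and 6 lower in sham mice. Fbn1, fibrillin-1, rose by 2.59 in Ang II mice and 3.38 in sham mice, while Thy1, a surface glycoprotein of fibroblasts, fell by 2.43 in Ang II mice and 1.56 in sham mice. Pdgfa, a ligand of the receptor encoded by Pdgfra, was lower at 6 months, with 12.2 ± 1.40 CPM against 25.4 ± 3.63 CPM at 4 months in Ang II mice and 12.3 ± 1.16 CPM against 27.1 ± 2.17 CPM in sham mice (log2 fold changes -1.06 and -1.11, edgeR adjusted p = 0.000326 and 5.02e-06).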

How the data were processed

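Aortic RNA was made into SMARTER mRNA-Seq libraries, per the labels' protocols. The authors deposited whole-number read counts per gene, and for every time a comparison of both treatments that lists a log2 fold change, its p-value and adjusted p-value, and a fold change as a ratio. FastQC, cutadapt, STAR and featureCounts are the read tools named in the submitters' processing notes, together with DESeq2 and mm10, with strand and multimapping settings not given in the sources used here. A read from an antisense gene may therefore be counted with its partner. The counts held 19163673 to 58676098 per library, and no 2 libraries of the same group agreed within sampling noise.

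The main tests on the deposited counts used edgeR 4.0.16 under R 4.3.3 (filterByExpr with a minimum count of 10 and a minimum total of 15, TMM, glmQLFit and glmQLFTest, Benjamini-Hochberg over all genes, threshold 0.05), within each time, over 24 libraries for the average and the interaction, and over the 12 libraries of a treatment for time. SE is the size of the log2 fold change over the square root of its F, and intervals are 95% from the same fit. CPM shown were TMM-scaled over all 24 libraries, and FPKM divide them by the union of exons in GENCODE M21, whose model of Pi16 differs in version and position from that of the files. Group-centred log2 CPM used a prior count of 3. Alternatives were DESeq2 1.42.0, limma 3.58.1 (voom with quality weights), other scalings and filters, a replicate block and leaving out each library. The fits were tested on simulated data. Replicate numbers were not used as a block, since equal numbers deviated together in every pair only for sham 6 against 2 months. The 10 genes and all lists were chosen with earlier results of these data known. Named besides the 10 are at most 3 called genes of largest change per list, comparison and direction, fewer where examples suffice, and the 10 genes most like their mean.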

Additional observations from a re-analysis of the deposited data

Results flagged for a closer look

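Of 60 groups of 4 libraries (10 genes in 6 groups), 2 held a library that stood far from the other 3 by Dixon's test. Chance, at 1 in 20, gives about 3, so the 2 flags are no more than chance gives. Lum had 42.1 CPM in Ang II replicate 4 at 2 months, against at most 32.1 CPM in the other 3 libraries of that group. Pi16 had 128 CPM in sham replicate 4 at 4 months, against at most 59.3 CPM in the other 3, the same library that bears on the Clec3b and Dcn comparisons.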

How the results depend on the processing

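Of 1079 values of single genes under alternatives (Ang II against sham for all 10, other comparisons for called or named genes), 1015 kept their direction and their side of the threshold, 29 lost a call, 9 gained one and 26 changed sign. All 26 sign changes were in uncalled Ang II against sham values. At 2 months, leaving out 1 library moved the log2 fold change between -0.24 and 0.19 for Pdgfra, -0.00817 and 0.41 for Dcn, -0.0576 and 0.11 for Lum, -0.24 and 0.0792 for Pi16, -0.0507 and 0.19 for Cd34, -0.11 and 0.24 for Scara5, and -0.49 and 0.14 for Dpep1. At 4 months the ranges were -0.0119 to 0.11 for Lum, -0.17 to 0.39 for Pi16, -0.0116 to 0.11 for Dpt and -0.20 to 0.00371 for Dpep1, and at 6 months -0.0378 to 0.16 for Dpt. limma gave 0.00097 for Pdgfra, 0.0537 for Ly6a and 0.00064 for Dpep1 at 2 months and 0.26 for Pi16 at 4 months, the fit over 24 libraries gave -0.00325 for Scara5 at 2 months, and the replicate block gave 0.0826 for Pi16 at 4 months.

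Of counts called, Ang II against sham at 4 months gave 1 by DESeq2, 2 by limma and 0 to 2 on leaving out a library, and at 6 months 1 by DESeq2. For 4 against 2 months, Ang II mice gave 1 by DESeq2 and 1 by limma, and sham mice 0 to 1 on leaving out a library. Asking also for a log2 change of 1 or more in size left 1 gene for 6 against 2 months in Ang II mice and 1 in sham mice, and 1 for 6 against 4 months in Ang II mice. For 6 against 4 months in sham mice it left Pdgfra, Pi16, Cd34 and Scara5, and removed Dpt and Lum. The median r was 0.61 over 16 libraries and 0.32 over the 8 at 6 months, and Dcn was at 134 FPKM with total-count scaling. Of the genes not called at 6 months against earlier times, 12 fits called one (Dcn 6, Clec3b 4, Dpep1 1 and Ly6a 1). The cause of these differences was not tested. Scaling and filters shifted the median of all genes by up to 0.14 (log2) only for 6 months in Ang II mice with no filter. Equal replicate numbers did not pair the libraries: correlations of deviations ran from -0.29 to 0.51 between Ang II and sham at one time. They were over 0.1 in every pair only for sham at 6 against 2 months (0.11 to 0.45), where 5 genes of the 10 were called with the block and 5 without. With the replicate block, 0 genes of the 10 were called at 2, 4 and 6 months, as without it, and over all genes 208, 0 and 0 were called, against 297, 114 and 0. Over all genes DESeq2 called 727, 993 and 63, and limma 629, 602 and 0.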
